A study of Canis lupus familiaris with 51 samples.

Results

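The tumours compared here are 14 spleen hemangiosarcomas from neutered dogs: 3 from German Shepherd Dogs and 11 from Golden Retrievers, out of 51 tumours in the series. They were selected by label only: tissue spleen, sex label MN or FS (taken here as castrated male and spayed female), and breed. The German Shepherd tumours came from 1 castrated male aged 10.8 years (German Shepherd 1) and 2 spayed females aged 11 years (German Shepherd 2 and 3). The Golden Retriever tumours came from 4 castrated males and 7 spayed females aged 6 to 13.6 years. Mean age at diagnosis was 10.9 ± 0.115 years in the German Shepherds (SD, n = 3) and 10.1 ± 2.41 years in the Golden Retrievers (SD, n = 11). Another 18 spleen tumours lie outside the comparison: 9 from intact Golden Retrievers, 6 from neutered dogs of other breeds and 3 from intact dogs of other breeds. The 6 neutered dogs were 2 Keeshonds, a Boxer, a Bullmastiff, a Gordon Setter and a Labrador Retriever. No treatment is labelled for any group. Since the labels name no individual dogs, each p-value describes only how far these samples spread, which may be technical in part.

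Hemangiosarcoma is a malignant tumour of cells related to the blood vessel lining, and its masses hold blood-filled, irregular channels. The spleen is a common site in dogs, and German Shepherd Dogs and Golden Retrievers are both breeds in which the tumour is often diagnosed. A spleen tumour sample can hold tumour cells, ordinary vessel cells, connective tissue, and the lymphocytes, macrophages and blood-forming cells of the spleen. Neutering removes the gonads and with them most circulating sex hormone, and limiting the comparison to neutered dogs keeps that state alike in both breeds.

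The level of each transcript is given in FPKM, the number of sequenced fragments scaled by transcript length and by the size of the library. The genes carry Ensembl identifiers, which could not be paired with gene symbols here. Gene functions are therefore not stated, and the tissue label could not be compared with markers of spleen or vessel cells. No sequence is printed for the same reason.

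The 3 German Shepherd tumours did not form a group apart from the Golden Retriever tumours. Their nearest relatives among all 32 spleen tumours, by correlation of log2(FPKM + 1) over the tested genes, were neutered Golden Retriever tumours in 3 of 3 cases. German Shepherd 1 was nearest to Golden Retriever 11 (correlation 0.957), German Shepherd 2 to Golden Retriever 8 (0.951) and German Shepherd 3 to Golden Retriever 9 (0.935). These correlations run across genes, which are not independent replicates. The median correlation was 0.895 over the 3 pairs of German Shepherd tumours, 0.863 over the 55 pairs of Golden Retriever tumours and 0.886 over the 33 pairs that crossed the breeds. The mean correlation among German Shepherd tumours exceeded their mean correlation with Golden Retriever tumours by 0.0243, which was not beyond the spread over tumours (exact permutation test over 364 assignments, two-sided p = 0.536).

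The first axis of variation did not separate the breeds. The first principal component, the direction that holds most of the variation, took 40.3% of the variance of the 14 tumours. On it German Shepherd 1 scored 9.03, German Shepherd 2 scored -52.4 and German Shepherd 3 scored -44.8. The Golden Retrievers ran from -60.4 to 74.4, so all 3 German Shepherds lay inside their range. The second component held 17.6% of the variance and set Golden Retriever 7 apart, at 102 against at most 34.7 in the other tumours. German Shepherd 2 had the lowest score there, -34.2, below every Golden Retriever (-23 to 102), while German Shepherds 1 and 3 lay inside their range at -12.7 and -9.88. Scores on the second component did not differ beyond the spread (exact permutation p = 0.258, adjusted p = 0.725). Scores on the first component averaged -29.4 ± 33.5 in German Shepherds and 8.02 ± 52.6 in Golden Retrievers (SD, exact permutation p = 0.272, adjusted p = 0.725 over 8 library measures).

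**Figure D1:**
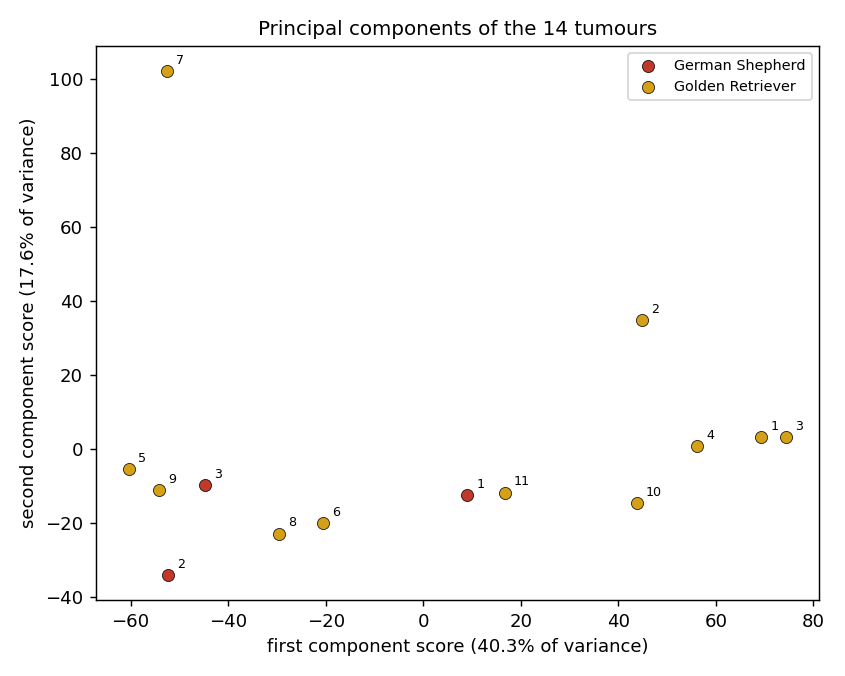
Scores of the 14 tumours on the first component (horizontal, 40.3% of variance) and the second component (vertical, 17.6% of variance), numbered by replicate. German Shepherds 2 and 3 lie at -52.4 and -44.8 on the first component among Golden Retrievers, German Shepherd 1 lies at 9.03, and Golden Retriever 7 stands apart at 102 on the second.

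The libraries of both breeds were alike in overall measures. German Shepherds had 11314 ± 121 genes at 1 FPKM or more, and Golden Retrievers 11269 ± 190 (SD). Relative depth, solved from the steps between low FPKM values, was 1, 0.863 and 0.937 in the German Shepherds and 0.808 to 1.59 in the Golden Retrievers (exact permutation p = 0.253, adjusted p = 0.725). Its means were 0.933 and 1.09. With relative depth as a covariate, limma called 0 genes and the smallest adjusted p was 0.525. None of the 8 measures passed (0 had an unadjusted exact p under 0.05). Golden Retriever 7 had the highest sum of FPKM, 1057712 against 424488 to 553689 in the other 13 tumours, and its 10 highest genes held 30% of that sum. It also had 42 genes at 10 FPKM or more that were under 1 FPKM in the other 13 tumours, against 0 in each German Shepherd and at most 2 in each other Golden Retriever. Leaving it out gave 0 called genes, as with all 14 tumours.

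No gene differed between the breeds after adjustment. limma called 0 of 12096 tested genes (0%, adjusted p under 0.05), and the smallest adjusted p was 0.111. Before adjustment, 451 genes (3.73% of those tested) had a p under 0.05. Of these, 288 were higher in German Shepherd tumours and 163 lower. In spayed females alone that split was 229 higher and 306 lower. The median difference over all genes was -0.004 on the log2 scale and the median size of a difference was 0.23. In bulk tissue, a lower level can come from fewer cells of a type or from less RNA per cell, and these cannot be told apart.

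The number at an unadjusted p under 0.05 moved with single German Shepherd tumours. It was 823 without German Shepherd 1, 329 without German Shepherd 2 and 222 without German Shepherd 3, and it ran from 346 to 615 when 1 Golden Retriever was left out. German Shepherd 1 is the only male of the 3, so sex and the individual tumour cannot be told apart there.

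With 3 German Shepherd tumours the intervals around the differences were wide for many genes. The 95% interval of a difference reached a median of 0.64 to either side on the log2 scale, with quartiles of 0.47 and 0.97. For 6953 genes (57.5%) the interval lay wholly between -1 and 1 on the log2(FPKM + 1) scale, which for low genes is wider than a doubling of FPKM. For the other 5143 genes the interval reached past these limits, so a difference of that size is not bounded by these data. Between tumours of 1 breed, the median gene had an SD of 0.36 in German Shepherds and 0.47 in Golden Retrievers on the log2 scale.

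**Figure D2:**
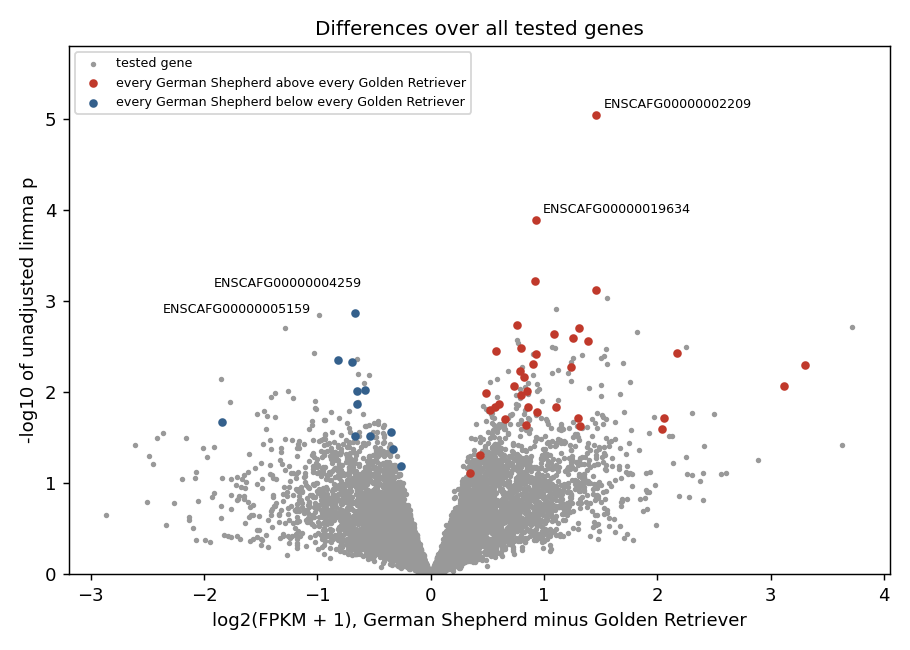
Difference in log2(FPKM + 1), German Shepherd minus Golden Retriever (horizontal), against -log10 of the unadjusted limma p (vertical) for 12096 genes. The 37 red genes had every German Shepherd tumour above every Golden Retriever tumour and the 12 blue genes every one below, and no gene passed after adjustment.

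The gene with the smallest p, ENSCAFG00000002209, was at 12.6, 21.8 and 8.36 FPKM in German Shepherd 1, 2 and 3. In the 11 Golden Retriever tumours its lowest value was 3.43, its median 4.29 and its highest 5.4 FPKM. Every German Shepherd tumour thus lay above every Golden Retriever tumour, and the German Shepherd values differed among themselves by more than the whole Golden Retriever range. The difference was 1.46 ± 0.221 on the log2 scale (SE, 95% interval 0.99 to 1.93, limma adjusted p = 0.111), which did not pass. The SE, interval and p take a common spread for both breeds. For this gene the SD was 6.86 FPKM in German Shepherds and 0.628 FPKM in Golden Retrievers. The interval may therefore be too narrow. By sex, the male German Shepherd had 12.6 FPKM against at most 5.4 in castrated Golden Retrievers. The 2 females had 21.8 and 8.36 FPKM against at most 4.32 in spayed ones. With the groups fully apart, the order within each sex was fixed in advance and is no separate check.

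Outside the comparison, ENSCAFG00000002209 was low in most spleen tumours. The 9 intact Golden Retrievers had 2.99 to 4.87 FPKM with a median of 4.23, below all 3 German Shepherds. The 6 neutered dogs of other breeds had 2.43 to 7.67 FPKM with a median of 3.89, also below all 3. One tumour from an intact dog of another breed reached 13.6 FPKM, above German Shepherds 1 and 3, and the highest of 11 heart tumours reached 22.9 FPKM. A high value was thus also present in 1 spleen tumour of another breed. The heart tumours came from several breeds, Golden Retriever among them. In the 32 spleen tumours the German Shepherds ranked 3, 1 and 4 from the highest.

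With the intact Golden Retrievers added (3 against 20 tumours), ENSCAFG00000002209 was the 1 gene called, at a log2 difference of 1.51 (limma adjusted p = 0.000517). That set mixes neutered and intact dogs in 1 breed only. It holds the same 3 German Shepherd tumours, so the lower p rests on no further German Shepherd. The added intact Golden Retrievers had an SD of 0.719 FPKM against 6.86 FPKM in German Shepherds. They thus lower the common spread that the test takes, and the p may be too small. The limma adjusted p of ENSCAFG00000002209 was 0.0211 without German Shepherd 3, where it was again the 1 gene called. It was 0.653 and 0.684 without German Shepherd 1 or 2. Over all 30 other settings the difference ran from 1.12 to 1.76 and the limma adjusted p from 0.000517 to 0.944.

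ENSCAFG00000019634 was steady among German Shepherds, at 87.6, 90.8 and 88 FPKM. Golden Retriever tumours had a lowest value of 36.9, a median of 41.8 and a highest of 64.2 FPKM, so the groups did not overlap. The difference was 0.93 ± 0.181 (SE, log2 scale, limma adjusted p = 0.785), which did not pass. Intact Golden Retrievers reached 73 FPKM and neutered dogs of other breeds 68.6 FPKM, both below the lowest German Shepherd. The German Shepherds ranked 3, 1 and 2 of the 32 spleen tumours, while the highest heart tumour had 115 FPKM.

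On the lower side, ENSCAFG00000004259 was at 11.4, 11.1 and 8.09 FPKM in German Shepherds. Golden Retrievers had a lowest value of 11.9, a median of 16.7 and a highest of 20.6 FPKM, so the groups lay apart by a narrow margin. The difference was -0.67 ± 0.171 (SE, log2 scale, limma adjusted p = 0.92) and did not pass. Intact Golden Retrievers went down to 7.35 FPKM and neutered dogs of other breeds to 4.92 FPKM, so low levels were not particular to German Shepherds.

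ENSCAFG00000005159 was at 2.33, 0.98 and 1.13 FPKM in German Shepherds and at 2.15 to 5.88 FPKM in Golden Retrievers, with a median of 4.06. German Shepherd 1 lay inside the Golden Retriever range and the other two lay below it. The difference was -0.98 ± 0.249 (SE, log2 scale, limma adjusted p = 0.92) and did not pass. Neutered dogs of other breeds ran from 1.1 to 4.47 FPKM and overlapped both breeds.

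**Figure D3:**
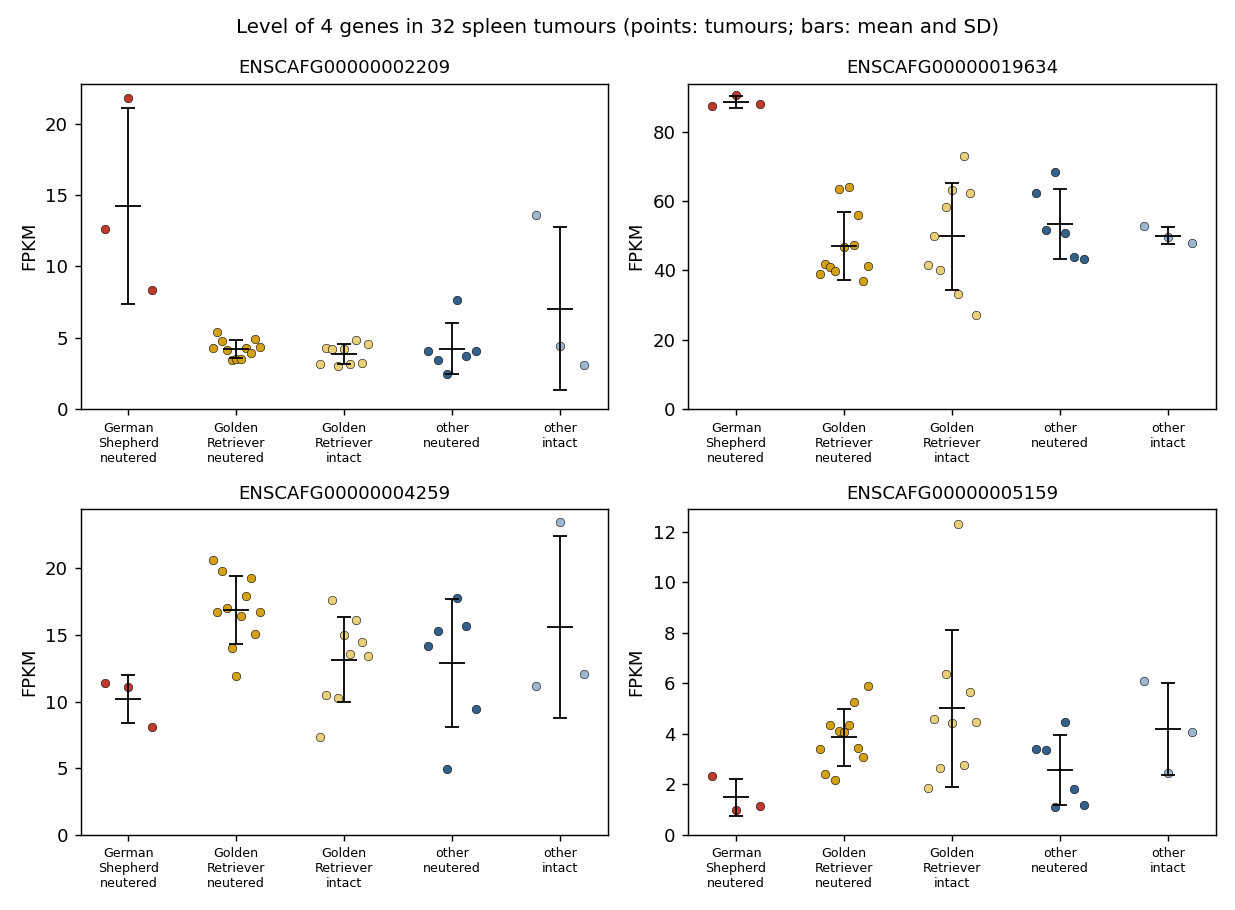
FPKM of the 2 genes higher and the 2 genes lower in German Shepherds with the smallest p, in 32 spleen tumours by breed and neuter status; points are tumours and bars the mean and SD. The 3 German Shepherds lie at 8.36 to 21.8 FPKM for ENSCAFG00000002209 and at 87.6 to 90.8 FPKM for ENSCAFG00000019634, above every neutered Golden Retriever, and at or near the low end of the Golden Retriever values for the remaining genes.

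Genes whose groups lay fully apart were also counted. In 37 of 12096 genes (0.306%) every German Shepherd tumour was above every Golden Retriever tumour, and in 12 genes (0.0992%) every one was below. With labels set at random, 1 of the 364 assignments puts all 3 tumours on top, a fraction of 0.00275 of genes on each side. The share above was near that fraction and the share below was under it. Neither count nor their split is thus read as a result. The 37 genes had differences of 0.35 to 3.3 with a median of 0.92 on the log2 scale, and 15 of them reached 1 on that scale. The 12 genes had differences of -1.84 to -0.26 with a median of -0.65, and 1 of them reached -1. Because these genes were picked for lying apart, their direction is not a finding, and 0 of the 49 passed the adjusted test. Without German Shepherd 1, 2 or 3 the counts were 231, 118 and 103 genes above and 307, 62 and 48 below. In general 2 tumours lie apart more easily than 3, whichever is left out. Why the counts were highest without German Shepherd 1 was not tested. The counts were 56 above without Golden Retriever 9, and 22 and 21 below without Golden Retriever 5 or 6.

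The genes that lay apart were of ordinary abundance. The 37 higher genes had a median of the German Shepherd means of 26.2 FPKM and of the Golden Retriever means of 14.3 FPKM, against 14.6 and 15.2 FPKM over all tested genes. The 12 lower genes had 9.32 and 14.5 FPKM.

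Few genes were detected in 1 breed only. There were 2 genes at 1 FPKM or more in all 3 German Shepherds and under 1 FPKM in all 11 Golden Retrievers, with German Shepherd values of 1.01 to 8.19 and 1.23 to 2.8 FPKM. The Golden Retriever values of these genes went up to 0.954 and 0.723 FPKM. The highest Golden Retriever and the lowest German Shepherd values of both genes thus lay close to the limit used. In the other direction there were 0 genes. By contrast, 9698 genes reached 1 FPKM in all 14 tumours.

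The largest differences in means belonged to genes that varied widely among Golden Retrievers. The largest was 3.72 ± 0.99 (SE, log2 scale, limma adjusted p = 0.92), for a gene at 121, 304 and 319 FPKM in German Shepherds. In Golden Retrievers it ran from 3.98 to 160 FPKM with a median of 9.36, and 2 of the 11 exceeded German Shepherd 1. The most negative was -2.86 ± 2.26, for a gene at 0.21, 0 and 7.17 FPKM in German Shepherds and 0 to 24700 FPKM in Golden Retrievers. In all, 442 genes had a difference of 1 or more and 250 of -1 or less on the log2(FPKM + 1) scale, and 0 of them passed.

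2 genes among the 5 largest positive differences lay apart between the breeds and followed each other from tumour to tumour. They were picked after their values were seen. The first was at 183.7, 268.4 and 291.5 FPKM in German Shepherds 1, 2 and 3, and the second at 41.1, 58.96 and 62.49 FPKM. Golden Retrievers 4 and 5 came close, with 172.7 and 170.1 FPKM of the first and 38.54 and 37.73 FPKM of the second. Golden Retriever 11 had 4.2 FPKM of the first, and the second rounded to 0 FPKM there and in Golden Retriever 8.

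The ratio of the first gene to the second was 4.47, 4.55 and 4.66 in the German Shepherds, and it ran from 2.02 to 5.15 over the 12 tumours with at least 1 FPKM of the second. Whether the genes share reads as near-identical or overlapping copies was not tested. Their differences between the breeds were 3.3 ± 1 and 3.12 ± 1.03 (SE, log2 scale), and both had a limma adjusted p of 0.92.

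High levels of this pair were not particular to German Shepherds. In the 6 neutered dogs of other breeds the first gene ran from 93.1 to 210 FPKM with a median of 167, and the second from 0.236 to 57.9 FPKM with a median of 42.5. The tumour with 0.236 FPKM of the second thus had at least 93.1 FPKM of the first, so the genes did not follow each other there. The intact Golden Retrievers had medians of 21.3 and 3.03 FPKM, with highest values of 131 and 25.7 FPKM. The 3 intact dogs of other breeds had medians of 10.3 and 5.02 FPKM, with highest values of 145 and 33.7 FPKM, so low levels also occurred in other breeds.

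**Figure D4:**
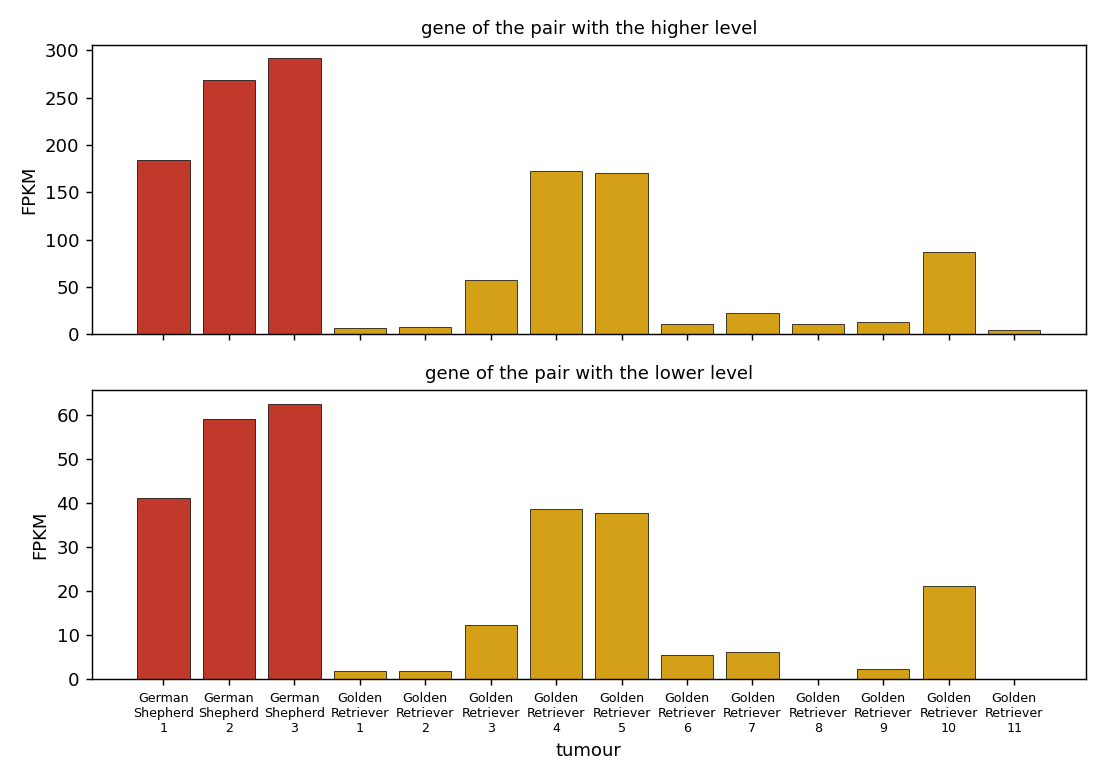
FPKM of 2 genes that broadly followed each other over the 14 tumours, in each tumour (bars, red for German Shepherd and yellow for Golden Retriever). The 3 German Shepherds have 183.7 to 291.5 FPKM of the first gene and 41.1 to 62.49 FPKM of the second, and Golden Retrievers 4 and 5 reach 172.7 and 170.1 FPKM of the first.

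Neutered tumours of the other breeds were added as a separate group to show against which dogs a difference stood out. In this fit of 20 tumours limma called 0 of 12367 genes (0%) between German Shepherds and the 6 other dogs. Before adjustment 437 genes had a p under 0.05 (284 with the German Shepherd mean above, 153 with it below), and the lowest adjusted p was 0.207. That count was 767, 185 and 239 without German Shepherd 1, 2 or 3, and 283 with sex as a covariate. In the same fit, German Shepherds against Golden Retrievers gave 317 genes with a p under 0.05 before adjustment and 0 called. Between Golden Retrievers and the 6 other dogs it also called 0 of 12367 genes (0%). Here 341 had a p under 0.05 before adjustment, and the lowest adjusted p was 0.999. These comparisons share tumours with each other and with the main one. ENSCAFG00000002209 differed by 1.51 ± 0.267 between German Shepherds and the other dogs (SE, log2 scale, limma adjusted p = 0.207), and by 0.05 ± 0.192 between Golden Retrievers and the other dogs (limma adjusted p = 0.999). For ENSCAFG00000004259 these values were -0.23 ± 0.281 and 0.44 ± 0.201, and for ENSCAFG00000005159 they were -0.46 ± 0.318 and 0.51 ± 0.228, with a limma adjusted p of 0.987 against German Shepherds and 0.999 against Golden Retrievers for both genes.

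Groups of genes that vary together were also compared, since a shift shared by many genes can be too small in each. Such modules were built in the 18 spleen tumours outside the comparison, so no value of the 14 tumours entered them. There were 22 modules with 2282 genes, and the level of a module was taken by averaging log2(FPKM + 1) over its genes. In the 14 tumours, 13 of the 22 modules had a mean correlation between their genes of 0.3 or more. The others held together less there, down to 0.081 in the 135-gene module. None passed between the breeds (exact permutation tests, smallest adjusted p = 0.544 over 22 modules), and 1 had an unadjusted exact p under 0.05. With 3 against 11 tumours a single module could not have gone below an adjusted p of 0.0604, even with the groups fully apart. For 17 of the 22 modules all 3 German Shepherd levels lay inside the range of the 11 Golden Retrievers.

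The module with the smallest p held 45 genes. Its level was 5.32, 5.43 and 5.63 in German Shepherds 1, 2 and 3, against 2.99 to 5.42 with a median of 4.42 in Golden Retrievers. Golden Retriever 9, at 5.42, was the 1 Golden Retriever at or above the lowest German Shepherd. The difference was 1.22 (means 5.46 ± 0.16 and 4.24 ± 0.83, SD, exact permutation p = 0.0247, adjusted p = 0.544), which did not pass. All 45 genes had a higher mean in German Shepherds, with a median difference of 1.32 on the log2 scale against -0.004 over all tested genes. Of the 45 genes 20 had an unadjusted p under 0.05, against 3.73% of all tested genes, and 0 passed the adjusted test. The module is described because it had the smallest p of 22, and its genes are not independent, so these counts support nothing further.

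Levels of this module were spread widely in other spleen tumours. They ran from 2.61 to 6.42 with a median of 4.78 in neutered dogs of other breeds and from 3.04 to 4.96 with a median of 3.95 in intact Golden Retrievers. The 3 intact dogs of other breeds had 3.59 to 5.02 with a median of 3.9. The German Shepherd levels thus lay above every intact dog of either kind. They lay inside the range of the neutered dogs of other breeds.

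The larger modules showed how the 3 German Shepherd tumours differed among themselves. The 325-gene module stood at 3.5, 4.34 and 3.87 in German Shepherds 1, 2 and 3, and at 1.7 to 4.87 in Golden Retrievers. The 262-gene module stood at 4.46 in German Shepherd 1 and at 3.33 and 3.23 in the other two, against 2.98 to 5.61 in Golden Retrievers. The 52-gene module had the same order, with 4.38, 3.48 and 3.13 against 2.94 to 5.36. German Shepherd 1 thus lay near the middle of the Golden Retriever values in both, and German Shepherds 2 and 3 lay near their low end. The 164-gene module was highest in German Shepherd 3, at 5.59 against 3.25 to 4.9 in Golden Retrievers, while German Shepherds 1 and 2 had 4.68 and 4.3.

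A 122-gene module stood at 1.49, 1.97 and 1.95 in German Shepherds 1, 2 and 3, around the Golden Retriever median of 1.68. Golden Retriever 7 stood apart at 7.38, against at most 3.04 in the other Golden Retrievers, so most tumours of both breeds were alike there. Its exact permutation p was 0.621 (adjusted p = 0.759).

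**Figure D5:**
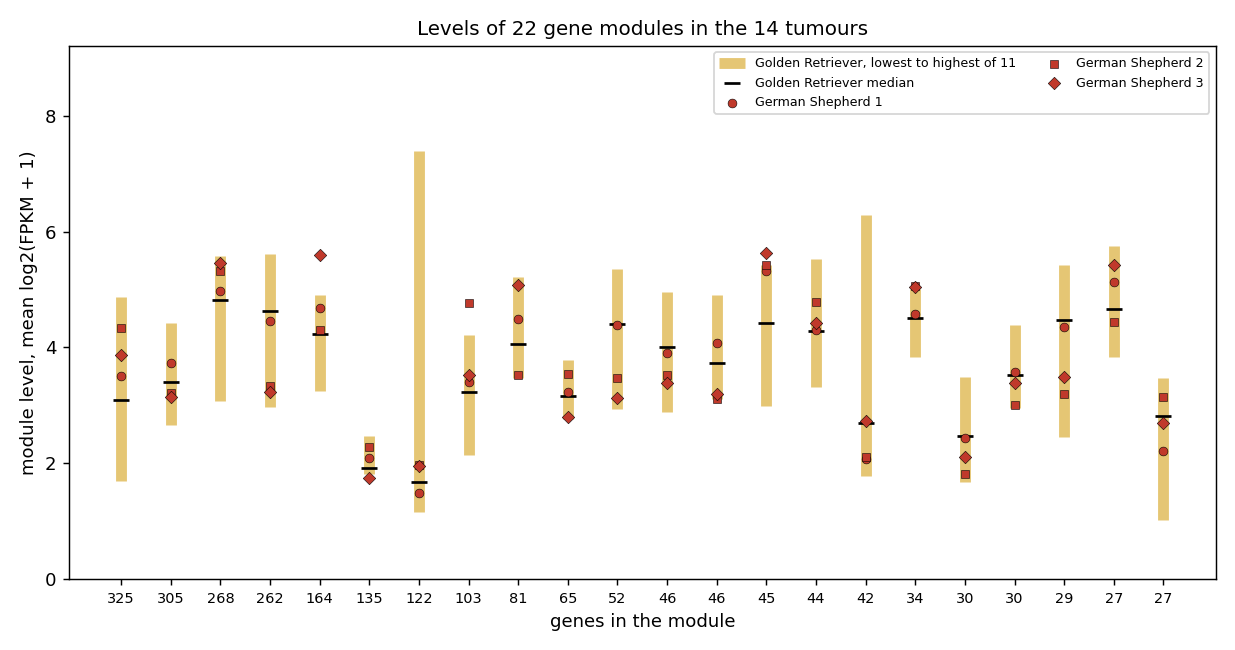
Level of 22 modules, as mean log2(FPKM + 1), in the 3 German Shepherds (red markers) over the range of the 11 Golden Retrievers (yellow lines, median as a black dash). In 17 modules all 3 German Shepherds lie inside the range, and in the 45-gene module they lie at 5.32 to 5.63 against a Golden Retriever median of 4.42.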

How the data were processed

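Total RNA was isolated on RNeasy columns and sequenced from Illumina TruSeq libraries, per the labels' protocols. The submitters' processing notes name build CanFam3.1, Cuffdiff, TopHat 1.4.1 and FastQC 0.11.2. No source used here gives the Cuffdiff version, annotation, strand setting or any scaling between libraries. The authors deposited 1 table of FPKM values for 16382 genes and 51 tumours. 0 identifiers matched the RefSeq table of assembly UU_Cfam_GSD_1.0, so the marker lists written for the case of a match were not scored.

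Values were analysed as log2(FPKM + 1), a scale on which low genes show too small a change. A gene was tested if 3 or more of the fitted tumours had 1 FPKM or more. The test was limma 3.58.1 in R 4.3.3 (no covariates, empirical Bayes with a mean trend, two-sided, Benjamini-Hochberg adjusted p under 0.05). Single values had exact permutation tests over the 364 assignments of 3 of 14 tumours, two-sided, with a smallest possible p of 0.00275. Modules came from the 3000 most variable genes of 18 other spleen tumours (average linkage, correlation 0.5, at least 25 genes).

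The absolute depth is unknown. Relative depth was estimated from the step that 1 fragment makes in 923 low genes. For the median library pair, 32.9% of these lay on the commonest step (within 0.04, log2 scale), so whole reads were not recovered. Relative depth also follows any scaling between libraries in the deposited values, which no source used here gives. No fragment counts were used, so no counting interval was computed. Scripts were tested on simulated data.

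The identifiers printed are the 2 higher and the 2 lower with the smallest p. The groups and lists were chosen with earlier results of these data known. The library similarity test, the counts of genes lying apart, the genes with the largest differences and the pair of genes were chosen after seeing the data. 1 Golden Retriever (1) has a CHAD title and the other 13 tumours DHSA titles. What the prefixes mean is unknown, and a comparison within titles was covered by leaving that tumour out.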

Additional observations from a re-analysis of the deposited data

Results flagged for a closer look

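Among 34 sets of 4 to 10 tumours examined for 1 tumour far from the others, 7 stood out. The limits used give about 1 in 20 by chance for independent values with a normal spread. These sets share tumours and were not shown to have a normal spread, so the number is not read as an excess. Golden Retriever 7 had a sum of 1057712 FPKM against 424488 to 540272 in the other spayed Golden Retrievers, 30% of its sum in the 10 highest genes against 4.51% to 9.48%, and a second component score of 102 against -23 to 3.1. Golden Retriever 5 had a relative depth of 1.59 against 0.971 to 1.03 in the other castrated Golden Retrievers, and 7.56% of its sum in the 10 highest genes against 5.21% to 5.39%. ENSCAFG00000002209 was at 7.67 FPKM in the Gordon Setter tumour against 2.43 to 4.05 FPKM in the other 5 neutered dogs of other breeds. ENSCAFG00000005159 was at 12.3 FPKM in intact Golden Retriever 6 against 1.84 to 6.37 FPKM in the other 8 intact Golden Retrievers, and this library had the highest relative depth of the spleen tumours, 2.13. Whether depth had a part in that value was not tested.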

How the results depend on the processing

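The count of called genes between German Shepherds and Golden Retrievers was 0 in 28 of 30 other settings. It was 1 with neutered and intact Golden Retrievers together, and 0 to 1 when each tumour was left out in turn. At an unadjusted p under 0.05 the count of 451 became 720 with array weights and 255 with Golden Retrievers aged 9 to 13 years, and the cause was not tested. The counts of genes called against other neutered breeds were 0 in the settings tried. Those of modules and library measures were also 0, which shows no stability: without 1 German Shepherd a single module could not go below an adjusted p of 0.282 and a single library measure not below 0.103, and in spayed females a single module not below 0.611. The 4 printed genes kept their direction in each setting in which they were tested, which was 29 of 30 for ENSCAFG00000005159, as it lies under a mean of 5 FPKM. These genes were picked by their p in the same tumours that the settings reuse, so the kept direction shows no stability. The 45-gene module's difference ran from 1.14 to 1.35, with an exact permutation p of 0.0247 to 0.111. The number of German Shepherd tumours limits the intervals. Leaving out a tumour for the genes lying apart, the library measures and, for Golden Retriever 7, the modules was chosen after seeing the data.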
